A study of Mus musculus with 2 samples.

Results

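The genes described here build elastic fibers and the microfibrils around them: Eln, Fbn1, Fbn2, Fbln1, Fbln2, Fbln5, Efemp1, Efemp2, Mfap4 and Mfap5. They were chosen by name, as every spot of the arrays that carries the name of 1 of these 10 genes and is no control spot. Earlier results of these data were known when the genes were chosen. All 10 were found, among 37074 gene names on the array, with 21 probes in all. Of these probes 19 were well above background on both arrays, and the other 2, 1 for Fbn2 and 1 for Fbln5, were above background on neither. Every member had at least 1 probe above background on both arrays.

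Stromal cells of lymph nodes were measured on a pair of one-color Agilent arrays, 1 for each group. The tumor-draining sample came from nodes that drain a 4T1 tumor in C57BL/6 mice, collected 2 weeks after the tumor cells were placed under the skin at the mammary gland. The normal sample came from lymph nodes of mice with no tumor. The cells of both groups came from females and were sorted by flow cytometry for lack of CD45, the leukocyte surface antigen encoded by Ptprc. The 4T1 line, a breast cancer model, derives from BALB/c mice, so strain mismatch with the C57BL/6 hosts and the tumor itself cannot be told apart. The mouse age, the number of mice behind each sample and whether they were pooled are not given in the sources used here. With 1 array in each group no test was possible, the number of arrays limits the precision, and genes are called higher or lower by size alone, at 2-fold or more.

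Elastic fibers let vessels, skin and lung stretch and recoil. Cells secrete tropoelastin, which gathers on a scaffold of fibrillin microfibrils, and lysyl oxidases then cross-link it. Short fibulins carry tropoelastin and lysyl oxidase to that scaffold, and fibrillins also bind latent TGF-beta complexes. In lymph nodes such fibers are known from the capsule, the walls of vessels and the reticular fiber network made by fibroblastic reticular cells.

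The arrays read these genes through probes of 60 bases, and the sequences below show where neighbouring probes of a gene touch or sit apart. Sequences run 5′ to 3′ as the array files list them. Both Fbln5 probes above background lie on the minus strand of chromosome 12 in the mm9 build and share 24 bases, at chr12:102988189-102988212. The capital marks the base at which they differ, C22T from the AK090129 probe to the NM_011812 probe, counted from the 5′ end of the shared stretch.
Fbln5 probe of AK090129: ttaagagtttttacccaactgCgt
Fbln5 probe of NM_011812: ttaagagtttttacccaactgTgt
These probes had nearly the same difference between arrays, as given with the short fibulins.

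Transcripts often carry a polyadenylation hexamer near their 3′ end, and AATAAA and ATTAAA were searched in the probes on the listed strand. Matches, shown in capitals, are descriptions of the letters. Of 19 probes above background on both arrays, 4 held one (21.1%), against 13.4% of all 56605 probes, above background or not. One of them belongs to Fbn2 and is not shown, and the others belong to fibulins, at chr15:85082274-85082303 (plus strand), chr6:91222158-91222177 (plus strand) and chr12:102988153-102988176 (minus strand) in mm9.
Fbln1 probe of AK206280: ccttggggttctAATAAActctcagcagcc
Fbln2 probe of NM_007992: ctgtgttcctcaATTAAAaa
Fbln5 probe of NM_011812: gtatccagactgATTAAAtatttg
This Fbln1 probe starts 33732 bases upstream of the probe for another transcript.

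Efemp1 and Efemp2 each had a second probe away from the brightest one, by 5131 and 5550 bases. The whole probes are shown because they give the differences of these genes from another stretch of the genome. They lie at chr11:28821407-28821466 and chr19:5476212-5476271, both on the plus strand in mm9. Both Efemp1 probes are listed under NM_146015, while the brightest Efemp2 probe is listed under another transcript, NM_021474, than the one shown.
Efemp1 probe of NM_146015: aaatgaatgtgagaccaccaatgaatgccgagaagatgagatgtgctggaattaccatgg
Efemp2 probe of NM_001164352: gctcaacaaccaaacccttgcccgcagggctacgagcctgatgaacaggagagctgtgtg

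Most elastic fiber genes were lower in the tumor-draining sample. By its brightest probe, 8 of 10 members were at least 2-fold lower, against 16.5% of the 24683 genes measured above background on either array. Among the genes whose level lay between those of the dimmest and the brightest member, this share was 14.9%. The median log2 difference, tumor-draining minus normal, was -1.81 for the members and 0.10 for all those genes. No member was at least 2-fold higher, against 11.5% of genes, and 4 members were at least 4-fold lower, against 6.56%. Scaled to the spike-in RNA, 4 members were at least 2-fold lower and none higher, against 8.01% and 46.0% of all genes, and Fbn2 and Mfap4 turned to 0.15 and 0.29. That scaling moved the median of all genes by 0.82 and the lower share of all calls to 14.8%, against 59.0% under 75th percentile scaling. Fewer cells of a type and less RNA per cell cannot be told apart in such bulk samples.

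**Figure D1:**
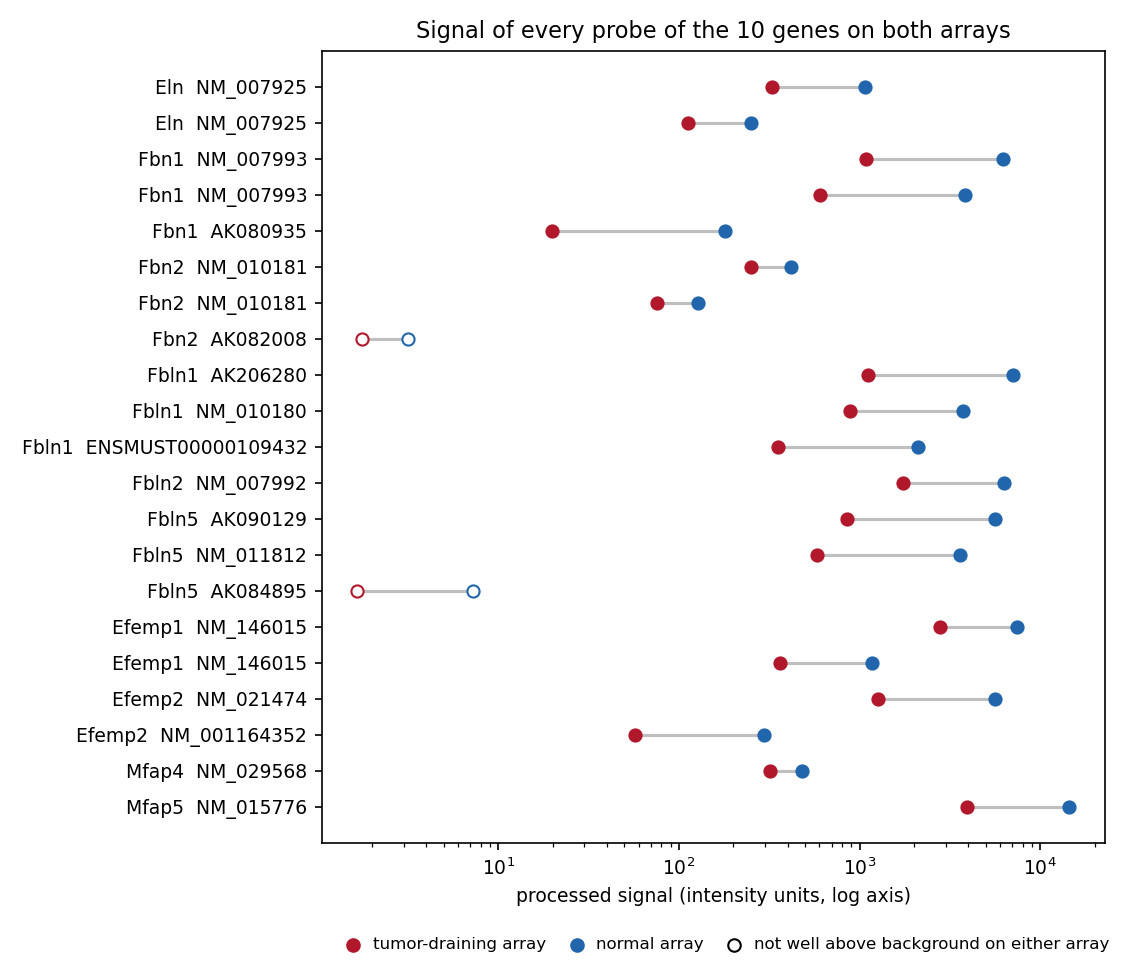
Processed signal in intensity units, on a log axis, of all 21 probes of the 10 genes. Red points are the tumor-draining array, blue points the normal array, and open points the 2 probes not well above background on either. The red point lies left of the blue one for every probe, with the shortest gap among filled points for Mfap4.

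Under 75th percentile scaling the probes agreed in direction. All 19 probes above background on both arrays had the lower value in the tumor-draining sample, 16 of them by at least 2-fold, with differences between -3.11 and -0.54. The 3 others were the probe of Mfap4 and both bright probes of Fbn2. Shares over all probes of the arrays are not given here. Scaled to the spike-in RNA, the brightest probes of Fbn2 and Mfap4 were at 0.15 and 0.29, so the direction of these genes depends on the scaling. For scale, 298 probes printed at least 10 times had a median spot SD of 0.05 for the log2 difference. Between probes of the same gene the median SD was 0.27, taken over 7591 genes. Neither measure covers the spread between mice.

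Eln encodes tropoelastin, the core of the fiber. Its brightest probe, on chromosome 5 at 135178554 to 135178613 in mm9, had a signal of 328 on the tumor-draining array and 1070.0 on the normal array. After scaling it was 3.12-fold lower on the tumor-draining array, a difference of -1.64. The other Eln probe, 575 bases away on the same transcript, had signals of 112 and 251 on the tumor-draining and normal arrays and a difference of -1.10. Eln was thus past 2-fold on both probes, with a gap of 0.54 between them.

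The fibrillins, the large glycoproteins that form the microfibril itself, went apart in size. Fbn1, the main fibrillin of adult tissue, had a signal of 1079 on the tumor-draining array and 6194 on the normal array, at 125126583 to 125126642 on chromosome 2 in mm9. After scaling it was 5.50-fold lower in the tumor-draining sample, and 3.21% of all measured genes had a lower difference. Its second probe, 144 bases away, had signals of 602 on the tumor-draining array and 3845 on the normal array. The remaining one, of transcript AK080935 and 163744 bases from the first, had signals of 19.9 and 179.6 on those arrays. These probes differed by -2.61 and -3.11, so all 3 Fbn1 probes were at least 4-fold lower. The lowest signal called above background on the tumor-draining array was 8.27.

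Fbn2, the fibrillin known mainly from development, lies on chromosome 18. Its brightest probe had a signal of 251 on the tumor-draining array and 417 on the normal array, a difference of -0.67. A second probe had signals of 75.4 and 128 on the tumor-draining and normal arrays and a difference of -0.71. Both probes were within 2-fold and only 0.03 apart. Its other probe was above background on neither array. The differences of Fbn1 and Fbn2 were 1.79 apart, more than the 0.65 between the farthest probes of Fbn1.

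**Figure D2:**
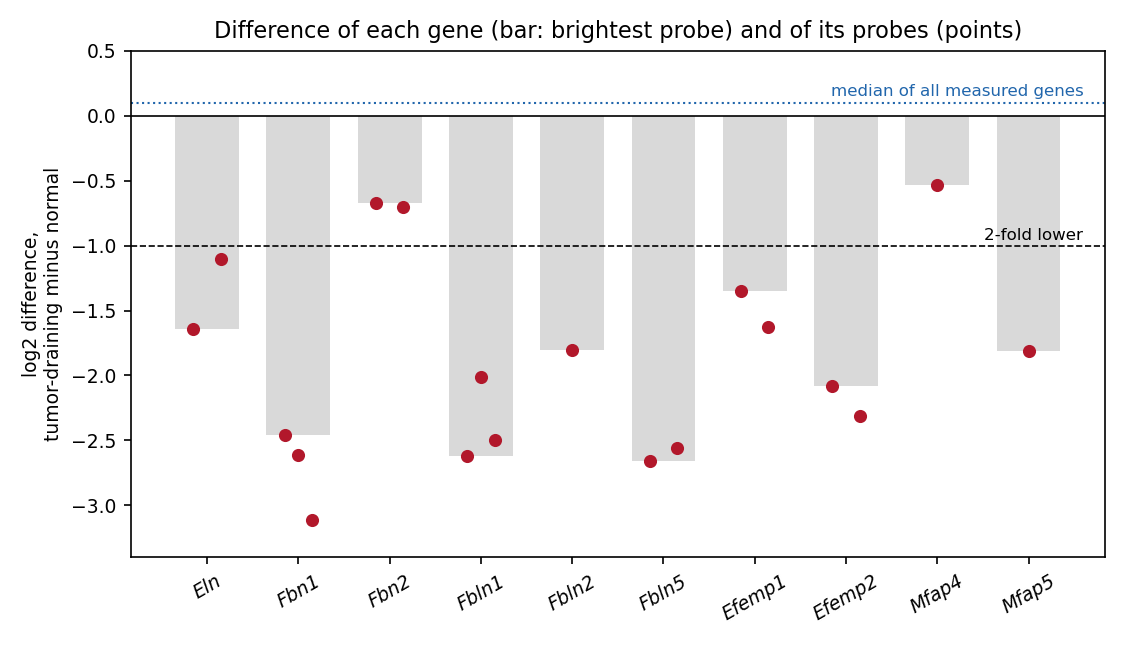
Log2 difference, tumor-draining minus normal, of each gene by its brightest probe (bars) and of all its probes above background on both arrays (points). The dashed line marks 2-fold lower and the dotted line the median of all measured genes, 0.10. Bars of 8 genes pass the dashed line, and those of Fbn2 and Mfap4 end above it.

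The long fibulins Fbln1 and Fbln2 encode glycoproteins of basement membranes and elastic fibers, and both were at least 2-fold lower. The brightest Fbln1 probe, of transcript AK206280 on chromosome 15 at 85082266 to 85082325 in mm9, holds the AATAAA hexamer shown above. Its signal was 1109 on the tumor-draining array and 7109 on the normal array, which is 6.14-fold lower. A neighbour 339 bases away, of transcript ENSMUST00000109432, had signals of 356 and 2095 on the tumor-draining and normal arrays and a difference of -2.50. The probe of NM_010180, at 85115998 to 85116057, had signals of 889 on the tumor-draining array and 3748 on the normal array, a difference of -2.01. Fbln1 is known to be spliced to alternative 3′ ends. The 2 upstream probes were 0.12 apart, while the downstream probe stood 0.48 and 0.60 above them. The SD over the 3 Fbln1 probes was 0.32, and over all genes with several probes the 90th percentile of that SD was 0.79. Whether the transcripts themselves differ was not tested.

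Fbln2 had 1 probe, on chromosome 6 at 91222118 to 91222177 in mm9. Its signal was 1740.5 on the tumor-draining array and 6337 on the normal array. It was 3.49-fold lower on the tumor-draining array, a difference of -1.80.

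The short fibulins Fbln5, Efemp1 and Efemp2 were all at least 2-fold lower. Fbln5, which tethers tropoelastin to microfibrils and binds integrins, had the lowest difference of the members by brightest probe. By the mean over probes above background on both arrays it was at -2.61, and Fbn1 was lower, at -2.73. Its brightest probe, on chromosome 12 at 102988189 to 102988248 in mm9, had a signal of 850.4 on the tumor-draining array and 5589.8 on the normal array. The scaled value was 6.30-fold lower, and 2.28% of all measured genes had a lower difference. The overlapping probe had signals of 583 and 3589.8 on the tumor-draining and normal arrays. With differences of -2.65 and -2.56, these probes were 0.09 apart despite the base at which they differ. They share sequence and are not independent readings. The dim probe of AK084895, with signals of 1.66 on the tumor-draining array and 7.30 on the normal array, gives no fold.

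Efemp2, also called fibulin 4, is needed for elastin cross-linking because it brings lysyl oxidase to tropoelastin. Its brightest probe, on chromosome 19 at 5481762 to 5481821 in mm9, had a signal of 1269 on the tumor-draining array and 5612 on the normal array, 4.24-fold lower. The upstream probe printed above had signals of 56.9 and 295 on the tumor-draining and normal arrays and a difference of -2.31, 0.23 below the first. Efemp1, also called fibulin 3, is known from fascia and the eye. Its signal was 2795 on the tumor-draining array and 7427 on the normal array, on chromosome 11 at 28826538 to 28826597 in mm9. With a difference of -1.35 it had the smallest difference of the fibulins among the members. The upstream Efemp1 probe, with signals of 364 on the tumor-draining array and 1174 on the normal array, was at -1.63.

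The microfibril-associated proteins differed from each other. Mfap5, also called MAGP-2, decorates fibrillin microfibrils and marks adventitial fibroblasts in many mouse tissues. Its probe, on chromosome 6 at 122478591 to 122478650 in mm9, had a signal of 3941 on the tumor-draining array and 14459.8 on the normal array, 3.52-fold lower. Mfap4, a fibrinogen-related protein that binds elastin and microfibrils, had a signal of 318 on the tumor-draining array and 481 on the normal array, on chromosome 11 at 61301517 to 61301576 in mm9. Its difference of -0.54 was the smallest of the 10, and 24.7% of all measured genes had a lower one. Each of these genes had a single probe, so neither value has a second reading.

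**Figure D3:**
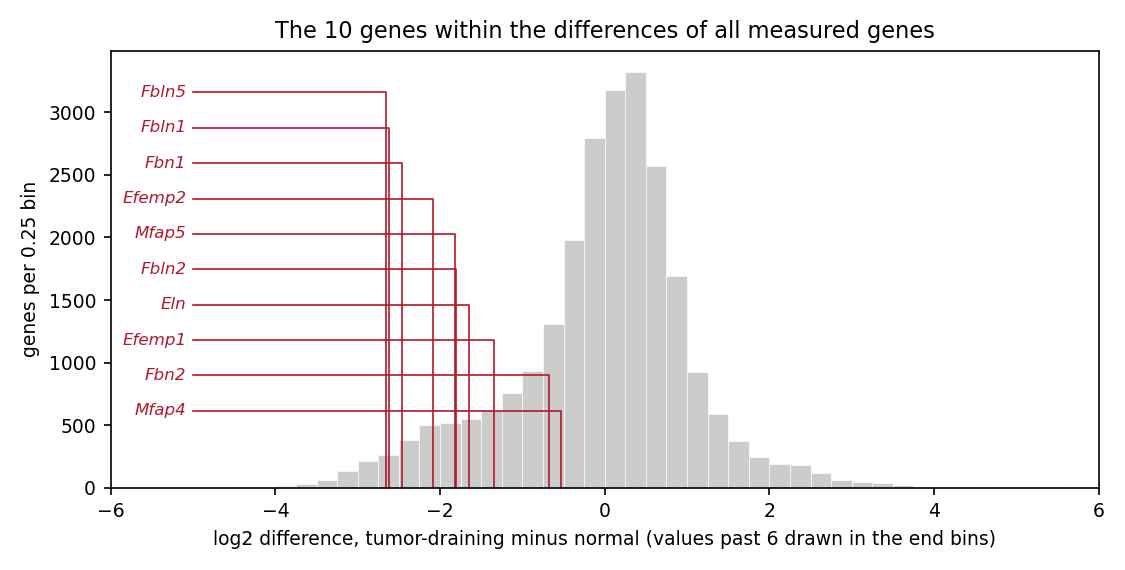
Number of genes in each 0.25 bin of the log2 difference, tumor-draining minus normal, over 24683 genes above background on at least 1 array, with a red line at each elastic fiber gene. The lines run from -2.65 for Fbln5 to -0.54 for Mfap4, all left of the median of all genes at 0.10.

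Promoter sequences were at hand from RefSeq (GRCm38.p6) for 6 of the 10 members: Fbn1, Fbln1, Fbln2, Fbln5, Efemp1 and Efemp2. The 250 bases before each annotated start were searched on both strands for the GC box (GGGCGG), the TATA box (TATAAA), an AP-1 site (TGANTCA) and a TEAD site (GGAATG). None of these motifs contains another. The GC box was in 8 of the 10 windows of these genes, some of which overlap, against 32.7% of 32851 promoters in the table. The AP-1 letters were in 1 window, that of Efemp1, against 6.75% of promoters. No window held the TATA letters (12.4% of promoters) or the TEAD letters (12.6%). The stretches outside the annotated gene are shown for the 3 members with the lowest differences by brightest probe, with GC boxes in capitals on either strand. They are Fbln5 at chr12:101819120-101819369 (minus strand), Fbln1 at chr15:85205699-85205948 (plus strand) and Fbn1 at chr2:125506486-125506688 (minus strand) in GRCm38.p6. The Fbln1 stretch holds none of the motifs, and its GC box lies in a second window of that gene.
Fbln5: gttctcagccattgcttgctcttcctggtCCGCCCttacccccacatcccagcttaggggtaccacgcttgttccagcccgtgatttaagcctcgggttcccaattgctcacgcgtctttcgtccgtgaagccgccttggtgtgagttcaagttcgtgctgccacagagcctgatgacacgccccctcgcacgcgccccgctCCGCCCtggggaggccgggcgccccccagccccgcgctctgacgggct
Fbln1: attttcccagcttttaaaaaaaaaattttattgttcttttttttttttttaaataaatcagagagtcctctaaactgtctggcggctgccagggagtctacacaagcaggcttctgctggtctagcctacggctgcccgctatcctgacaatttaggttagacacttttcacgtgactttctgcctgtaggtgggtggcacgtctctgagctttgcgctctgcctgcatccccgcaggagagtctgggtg
Fbn1: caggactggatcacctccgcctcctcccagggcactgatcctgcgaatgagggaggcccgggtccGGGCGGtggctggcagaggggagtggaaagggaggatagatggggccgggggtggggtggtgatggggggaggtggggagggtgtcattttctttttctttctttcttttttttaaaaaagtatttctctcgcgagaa
These matches describe letters in the windows, and no binding was measured.

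Most partners of the elastic fiber genes were lower too. Of 48 listed partner genes, 45 were above background on at least 1 array. Of these 45, 29 passed 2-fold downward and 3 upward, with a median difference of -1.66. For all 24683 measured genes, the shares were 16.5% downward and 11.5% upward. The same shares are the comparison for the counts of partners given below. The list, drawn up with earlier results of these data known, holds microfibril partners, lysyl oxidases, assembly partners, elastin-degrading proteases and receptors. Scaled to the spike-ins, 19 were lower and 8 higher, where 8.01% of all genes were lower and 46.0% higher.

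Among 18 microfibril partners, 12 were at least 2-fold lower and 1 higher, with a median of -1.93. Ltbp4, a latent TGF-beta binding protein that also aids elastin assembly, had a signal of 1730 on the tumor-draining array and 19252 on the normal array, a difference of -3.41. Ltbp2, which binds fibrillin, was 6.36-fold lower. Adamts6, a secreted metalloprotease known to act on fibrillin microfibrils, was 3.40-fold higher, with a signal of 288 on the tumor-draining array and 88.6 on the normal array. All 3 Adamts6 probes above background on both arrays were higher, by 1.34 to 1.88. Thsd4, which promotes fibrillin assembly, was at 0.44 on its brightest probe and -2.40 on another, so its direction depends on the probe.

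All 5 lysyl oxidases, the enzymes that cross-link elastin and collagen, were lower in value, 4 of them at least 2-fold. Loxl4 was at least 11.6-fold lower, since its brightest probe was not well above background on the tumor-draining array. A second Loxl4 probe, above background on both arrays, was at -2.79, a smaller difference than that bound. The measured signals of the brightest probe were 8.10 on the tumor-draining array and 100.4 on the normal array. Loxl2 had a difference of -2.23 and Loxl3 one of -1.71. Lox itself had signals of 1188 on the tumor-draining array and 1729 on the normal array and stayed within 2-fold at -0.48. Of 6 assembly partners, 5 were at least 2-fold lower. The lowest were the proteoglycan Bgn (-2.38) and the collagen and tropoelastin chaperone Fkbp10 (-2.22), and the smallest differences were those of the proteoglycan Dcn (-1.21) and the copper pump Atp7a (-0.32). Atp7a probes ran from -0.61 to 1.04.

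Proteases that can cut elastin went both ways, with 4 of 7 measured genes at least 2-fold lower and 2 higher. Mmp9 and Ctsl were at -2.42 and -2.01. Ctss, the cathepsin of antigen-presenting cells, was 3.43-fold higher, with a signal of 12751 on the tumor-draining array and 3884 on the normal array. Prtn3, a neutrophil serine protease, was 2.32-fold higher. Mmp7 and Mmp12 were above background on neither array. Of 9 measured receptor genes, 4 were at least 2-fold lower and none was at least 2-fold higher. The integrin chains Itga5 and Itga8, which bind fibronectin and other matrix proteins, were at -2.18 and -2.06. Neu1, a sialidase of the elastin receptor complex, and Itgb3 were both at 0.89, and Itgb6 was above background on neither array.

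**Figure D4:**
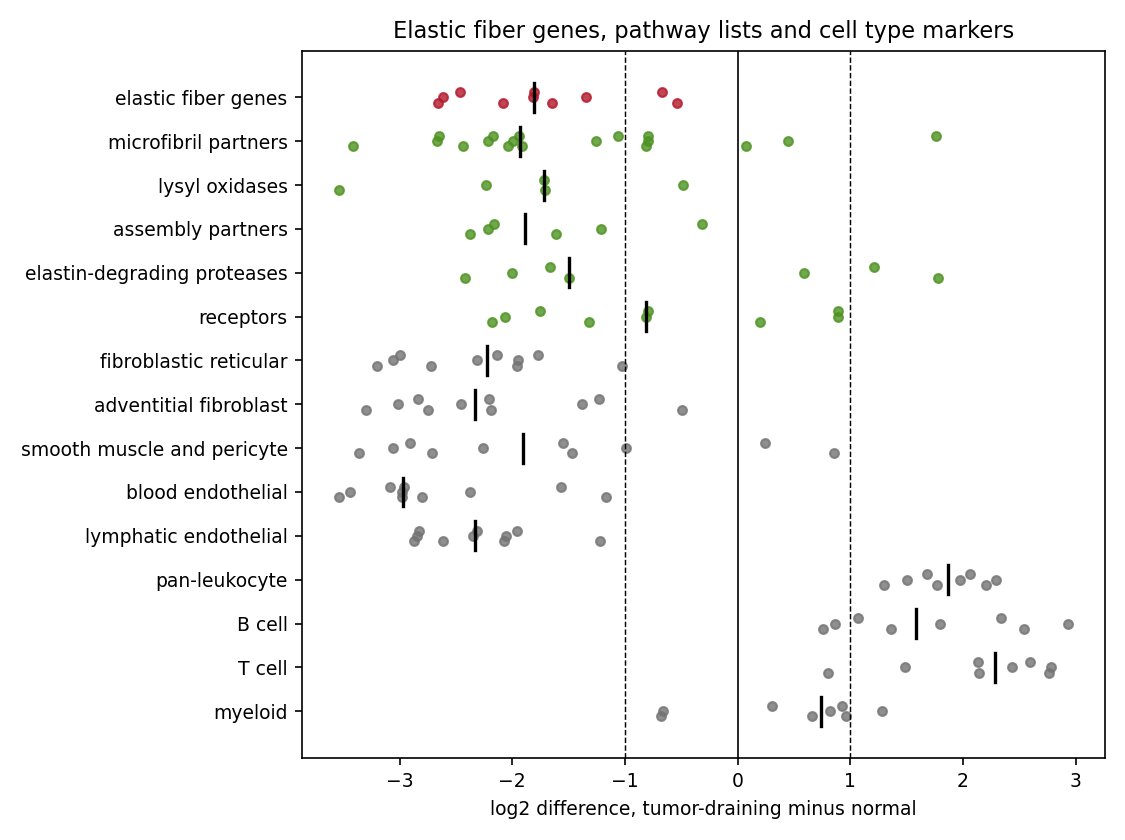
Log2 difference, tumor-draining minus normal, of each measured gene (points) by list, with the median of each list as a black bar and dashed lines at 2-fold. Elastic fiber genes are red, pathway lists green and cell type markers gray. Medians of the stromal lists lie between -2.97 and -1.91 and those of the leukocyte lists between 0.74 and 2.29.

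Markers of stromal cells and of leukocytes were read on the same arrays, where 16.5% of all genes were at least 2-fold lower and 11.5% higher. These marker lists, too, were chosen with earlier results of these data known. The 10 markers of fibroblastic reticular cells were all at least 2-fold lower (median -2.22), with a summed signal of 14488 on the tumor-draining array and 76491 on the normal array. Of 10 adventitial fibroblast markers 9 were lower (median -2.33), with sums of 39156 and 201483 on the tumor-draining and normal arrays. Smooth muscle and pericyte markers, of which 7 of 10 were lower, had a median of -1.91 and summed signals of 24162 on the tumor-draining array and 54252 on the normal array. The 3 others were Mcam (0.86), Cnn1 (0.24) and Acta2 (-0.99). Des, counted as lower at -3.36 on its brightest probe, was at 0.42 on another. All 10 blood endothelial and all 10 lymphatic endothelial markers were lower, with medians of -2.97 and -2.33. Pdpn and Ccl21a stand in both the fibroblastic reticular and the lymphatic list. The blood endothelial sums were 16264 on the tumor-draining array and 83379 on the normal array, and the lymphatic ones 9916 and 51599. All 8 pan-leukocyte markers were at least 2-fold higher, with summed signals of 120783 on the tumor-draining array and 36228 on the normal array. Among them Ptprc, the gene of the antigen that the sort selected against, had a signal of 17432 on the tumor-draining array and 3702 on the normal array. Of 8 B cell markers 6 were higher, with sums of 58280 and 25861 on the tumor-draining and normal arrays, and of 8 T cell markers 7, with sums of 46320 and 11395. Of 8 myeloid markers 1 was higher, with summed signals of 20168 on the tumor-draining array and 19033 on the normal array. No marker of these lists was below background on both arrays, and their part in the differences of the elastic fiber genes was not tested.

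Set beside these medians, 3 of the 10 elastic fiber genes, Fbln5, Fbln1 and Fbn1, lay below the median of fibroblastic reticular markers and also below that of adventitial markers. None lay below the blood endothelial median. Efemp2 lay below the smooth muscle and pericyte median, as did those 3. With 1 array per group these orders are descriptions.

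**Figure D5:**
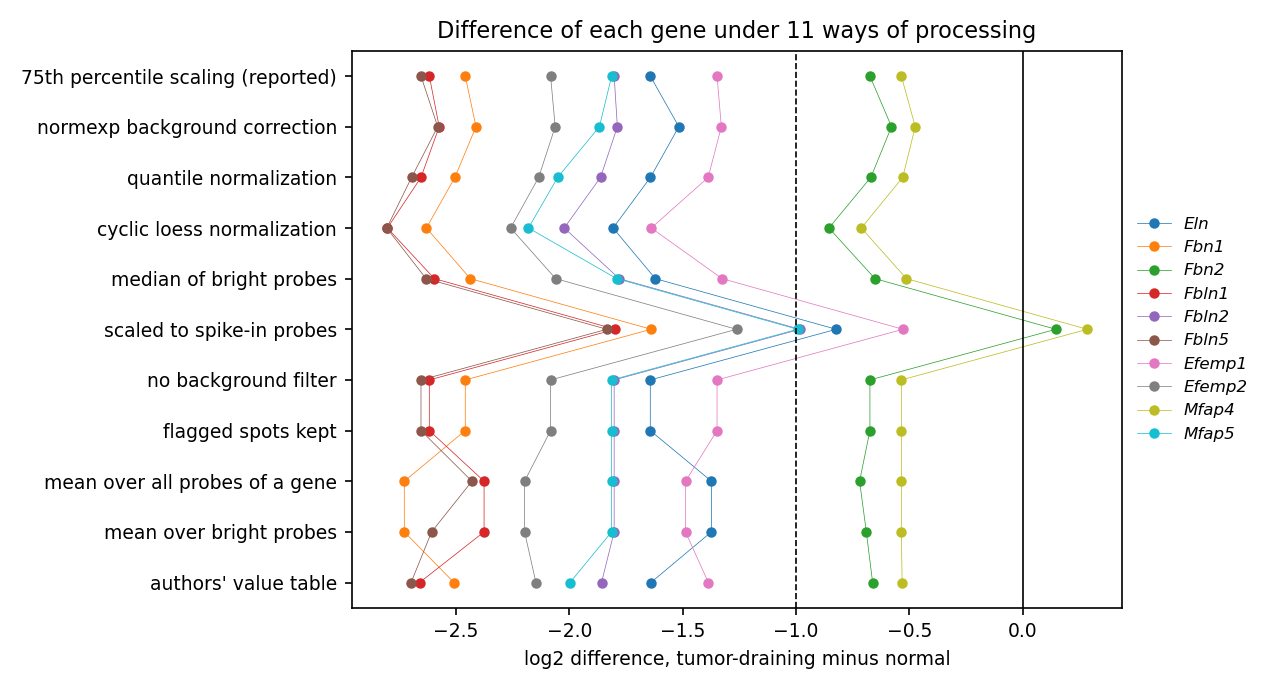
Log2 difference, tumor-draining minus normal, of each elastic fiber gene under the reported scaling and 10 alternatives. Under the other 9 alternatives 8 genes stay left of the dashed line at 2-fold lower. Scaling to the spike-in probes moves all 10 toward higher values, with Eln, Fbln2, Efemp1 and Mfap5 then right of the dashed line and Fbn2 and Mfap4 right of 0.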

How the data were processed

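RNA of CD45-negative sorted cells was amplified and labeled with Cy3 by a one-color Agilent kit, per the labels' protocols. Spot intensities in the deposited files are linear and, per the file headers, background-subtracted by Feature Extraction 12.0.3.1 (protocol GE1_1200_Jun14), with probe positions in mm9. Version 10.7 and limma are named in the submitters' processing notes. The authors' deposited table holds log2 values, whose scaling stays unknown. Its columns had medians of 4.86 (tumor-draining) and 4.85 (normal), correlated with the scanner values across probes (r = 0.9999 on each array), and served as an alternative.

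The log2 processed signal was reduced by each array's 75th percentile over 59305 non-control spots (358 tumor-draining, 374 normal). Spots flagged as non-uniform or as outliers were left out, 101 on the tumor-draining and 98 on the normal array; none was saturated. Of 56605 probes, 35572 on the tumor-draining and 36783 on the normal array were above background, counted where at least 50% of spots carried the software's mark. A gene took its brightest probe. Where only 1 array was above background, the difference is a bound, for which the dim signal was raised to the lowest signal above background if below it. Genes keep the names in the files, which do not state exon or UTR.

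Members and lists were chosen with earlier results of these data known. All members and their probes are named, and of each partner list the 2 highest and 2 lowest differences and any gene at least 2-fold higher. The calling code was tested on simulated data. Alternatives were normexp background correction (offset 50), quantile and loess normalization (span 0.3), centering on the median of bright probes, spike-in scaling (6 probes under 60000), no background filter, flagged spots kept, other probe rules and the authors' table. Software was R 4.3.3, limma 3.58.1, Python 3.11.15, pandas 2.3.3 and numpy 2.4.6.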

Additional observations from a re-analysis of the deposited data

How the results depend on the processing

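Under the 10 alternatives, no member at least 2-fold lower changed direction. Of 100 member values, 88 moved by less than 0.27, the median SD between probes of a gene. That count includes settings with little or no room to move a value. Keeping flagged spots or dropping the background filter left every member value unchanged, and centering shifted all genes alike by 0.02. Members with a single probe could not change under the other probe rules. Loess normalization, which moved the median of all genes by -0.17, gave a median of -2.10 over the members. Scaling to the spike-in probes moved all genes by 0.82 and gave 4 members and 19 partner genes at least 2-fold lower, with a member median of -0.99, where 8.01% of all genes were lower and 46.0% higher. The 4 members then within 2-fold were Eln (-0.82), Fbln2 (-0.98), Efemp1 (-0.53) and Mfap5 (-0.99), while Fbn2 and Mfap4 turned to 0.15 and 0.29. The other 9 alternatives kept 8 members at least 2-fold lower. Relative to all genes, the member median lay between -2.04 and -1.90 in all 10. Spike-in scaling and centering shift all genes alike, so they could not change this value, which stayed at -1.91. The amount of spike-in RNA put into each sample is not known here. No paired analysis was possible because each group has 1 array. Signals near the lowest called above background, 8.27 on the tumor-draining array and 7.72 on the normal array, limit the dimmest probes.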
